A study of Mus musculus with 7 samples.

Results

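The endothelial genes of the liver were described in miR-122 knockout (KO) and wild-type (WT) mice. The set holds 40 genes of sinusoidal and vascular endothelium. They were taken by name from the platform annotation, with a probe set counted only where it names the gene alone. All 40 were measured, among 18193 named genes in all, by 72 probe sets. Each gene was read from its probe set with the highest mean over all arrays. The KO group was livers of 4 mir-122 knockout mice (KO-03 and KO-90, KO-91 and KO-94) on a B6/129 background at 2 months of age. The WT group was livers of 3 mice (WT-27 together with WT-103 and WT-104) of the same background and age, with no deletion named. Total RNA of each frozen liver was hybridised to 1 Affymetrix mouse expression array, and the values are log2 expression. The sources used here give neither the way the knockout allele was made, nor the cells it affects, nor the sex and litters of the animals. The groups are livers of whole animals, so each value mixes all cell types of the organ. Fewer cells of a type and less RNA per cell cannot be told apart in such samples.

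miR-122 is a microRNA of hepatocytes, the parenchymal cells of the liver. Liver sinusoids are lined by a specialised endothelium with open pores and no complete basement membrane, which clears waste molecules from blood through scavenger receptors such as stabilins. Arteries, portal veins and central veins carry continuous endothelium, known by von Willebrand factor, CD34 and P-selectin. In chronic liver injury sinusoidal cells are known to lose scavenger receptors and to gain features of continuous vessels, a change called capillarisation. Endothelial cells also send Wnt signals to nearby hepatocytes and present adhesion molecules to white blood cells.

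Array medians lay between 4.65 and 4.72 and 0 arrays were identical. As a floor for levels, the highest of 27 bacterial control probe sets was taken, which lay between 4.71 and 5.23 on the arrays. Albumin, Alb, the main hepatocyte product, was at 14.63 ± 0.04 in KO and 14.60 ± 0.04 in WT (SD, n = 4 and 3). Of 8 measured hepatocyte markers 0 passed the test between genotypes, with the smallest p for the enzyme Tat (difference 0.90, limma adjusted p = 0.0533, and under 0.05 in 5 of 17 alternatives) and the clotting factor F9 (-0.42, limma adjusted p = 0.117). All 10 pan-endothelial genes lay above the floor on all 7 arrays. The probe sets used here hold none for miR-122, which leaves the genotype labels unchecked at the deleted gene. On the first principal component KO-03 lay nearest to WT of the KO arrays, at -1.32, against 15.8 to 42.5 for the other KO arrays and -32.3 to -20.1 for the WT arrays.

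The endothelin receptor Ednrb and the adhesion molecule Vcam1 rose in KO liver, and the other 38 endothelial genes did not pass the test. The test was limma over all 18193 genes with Benjamini-Hochberg adjustment at 0.05. Thus 2 of 40 genes, 5%, were higher in KO, where 2.58% of all genes were, and 0 were lower, where 0.951% of all genes were. Counting both directions, 3.53% of all genes passed. A count of 2 is near that background and is not a result about the set. Without WT-103 or without WT-104 only Ednrb passed. The median difference over the 40 genes was 0.19 on the log2 scale, KO minus WT, against 0.01 over all genes. At an unadjusted p under 0.05, 11 of the 40 were higher and 1 was lower, where 10.2% of all genes were higher and 6.23% lower, 16.4% in all. In 9 of the 40 every KO array lay above every WT array, 22.5% against 9.15% of all genes, and in 0 of them every KO array lay below, against 6.62% of all genes. These were Ednrb, Vcam1, Icam1, Cd34, Thbd, Selp, Gpihbp1, Flt4 and Eng. For Cd34 all WT arrays and 2 of the 4 KO arrays lay at or under the floor, so its separation is not fully measured. The share over all genes counts values under the floor too.

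**Figure D1:**
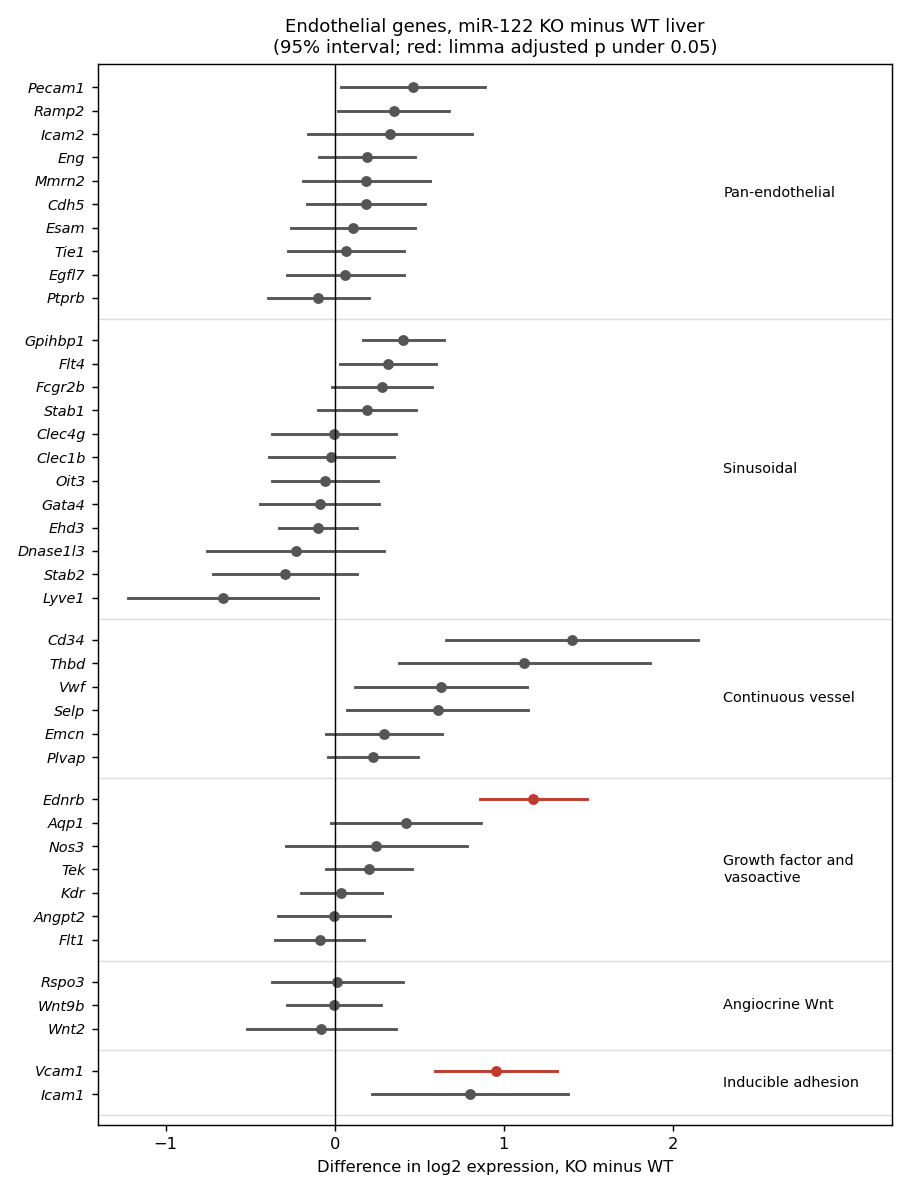
Difference in log2 expression, KO minus WT, for the 40 endothelial genes in 6 groups, with points for the estimate and lines for the 95% interval of limma (4 KO and 3 WT arrays). Ednrb at 1.17 and Vcam1 at 0.96, in red, passed the adjusted threshold, the sinusoidal genes scatter around 0, and all 6 continuous-vessel genes lie right of 0.

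Genes of sinusoidal endothelium showed no common shift. Of 12 sinusoidal genes 0 rose and 0 fell at an adjusted p under 0.05 in limma. At an unadjusted p under 0.05, Gpihbp1 and Flt4 were higher and Lyve1 was lower. Their differences ran from -0.66 to 0.41, 4 above and 8 below 0, with a median of -0.04. The mean of the 12 genes was 8.13, 8.14, 8.14 and 8.18 on the KO arrays, in the order KO-03, KO-90, KO-91, KO-94, and 8.10, 8.21 and 8.19 on the WT arrays, in the order WT-27, WT-103 and WT-104. The KO means lay within the range of the WT means. For 11 of the 12 genes the 95% interval of the difference lay within 1 log2 unit of 0, as it did for 16361 of the 18193 genes. The exception was Lyve1.

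The scavenger receptors and lectins of the sinusoid were measured one by one. Stab1, a stabilin that takes up modified proteins, averaged 7.15 ± 0.11 in KO and 6.96 ± 0.20 in WT (SD, n = 4 and 3). Stab2, the stabilin that clears hyaluronan, averaged 8.43 ± 0.30 in KO and 8.72 ± 0.27 in WT. Its difference was -0.29 with a 95% interval from -0.72 to 0.13. The ranges of both stabilins overlapped between genotypes. Clec4g, a C-type lectin of sinusoidal cells, averaged 9.93 ± 0.27 in KO and 9.94 ± 0.17 in WT, a difference of -0.004 with an interval from -0.37 to 0.36. Clec1b, a lectin receptor also known from platelets, averaged 8.03 ± 0.27 in KO and 8.05 ± 0.16 in WT. Fcgr2b, the inhibitory receptor by which sinusoidal cells take up immune complexes, had values of 10.22, 10.25, 10.13 and 9.92 on the KO arrays and 9.68, 9.86 and 10.01 on the WT arrays. The ranges overlapped through KO-94 and WT-104 alone. Of its other 4 probe sets, 3 differed by 0.09 to 0.34 and the remaining one, below the floor throughout, by -0.31.

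Lyve1, a hyaluronan receptor of sinusoidal and lymphatic endothelium, had the lowest difference of the 40 genes. It was at 5.28, 5.13, 5.39 and 5.37 on the KO arrays and at 5.28, 6.51 and 6.06 on the WT arrays. WT-27 lay among the KO arrays, while WT-103 and WT-104 lay above them all. The difference was -0.66 ± 0.25 (SE), with a limma adjusted p of 0.221, and its second probe set, at or under the floor on all KO arrays and 2 WT arrays, differed by -0.30. Without WT-27 the difference was -0.99, with an adjusted p of 0.0290. The KO arrays sat close to the floor, with 1 of 4 at or under it. Of 4 measured lymphatic markers 0 passed (0 at an unadjusted p under 0.05). Reln, which is also on the list of stellate markers, differed by 0.34 and Mmrn1 by 0.38. Mmrn1 and Pdpn lay below the floor throughout, so only Reln and Prox1 of this list were measured above it. The list mean was 6.13 to 6.46 on the KO arrays and 5.87 to 6.10 on the WT arrays, and it does not measure lymphatic vessels alone. The part of lymphatic vessels in the Lyve1 and Flt4 values was not tested.

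Gpihbp1, which anchors lipoprotein lipase on capillary endothelium, had narrow groups. It was at 8.96, 8.95, 8.88 and 9.09 on the KO arrays and 8.55, 8.50 and 8.65 on the WT arrays. Every KO array lay above every WT array, yet the difference of 0.41 ± 0.11 (SE) missed the threshold (limma adjusted p = 0.0774). Flt4, the receptor of VEGF-C, was at 7.79, 8.06, 7.79 and 7.92 on the KO arrays and 7.53, 7.43 and 7.77 on the WT arrays. The groups were separated, WT-104 lying just under the lowest KO array. Its difference was 0.32 ± 0.13 (SE), with a limma adjusted p of 0.246, and its second probe set differed by -0.20.

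The remaining sinusoidal genes lay close together. Oit3, a secreted protein known from sinusoidal cells, differed by -0.06 and the endocytic ATPase Ehd3 by -0.10. Gata4, the transcription factor that specifies sinusoidal endothelium, averaged 6.95 ± 0.24 in KO and 7.04 ± 0.19 in WT, a difference of -0.09. Dnase1l3, a nuclease that digests extracellular DNA, averaged 7.30 ± 0.35 in KO and 7.54 ± 0.41 in WT, a difference of -0.23.

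The 6 genes listed as markers of continuous vessels all lay higher on average in KO, where 52.5% of all genes did. None of the 6 passed the test. The list holds Plvap, a gene of endothelial pores, so it does not mark continuous vessels alone. Of 6 genes 0 rose and 0 fell at an adjusted p under 0.05. The 6 differences ran from 0.22 to 1.40 with a median of 0.62, against 0.01 over all genes. With the WT values of Cd34 raised to the floor the median was 0.46. At an unadjusted p under 0.05 in limma 4 of the 6 were higher, where 10.2% of all genes were. In 3 of the 6, Cd34, Thbd and Selp, every KO array lay above every WT array, as in 9.15% of all genes. Of these, Cd34 was separated partly by values under the floor. The mean of the 6 genes was 6.33, 6.59, 6.32 and 7.06 on the KO arrays, against 6.02, 5.72 and 5.85 on the WT arrays. KO-94 stood highest and the ranges did not overlap.

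Cd34, a sialomucin of continuous endothelium and of haematopoietic progenitors, was near background in most arrays. Its values were 4.38, 5.19, 5.18 and 6.13 on the KO arrays and 3.77, 3.84 and 3.84 on the WT arrays. All 3 WT arrays and 2 of the 4 KO arrays, KO-03 and KO-90, lay at or under the floor. The fitted difference was 1.40 ± 0.33 (SE) with a limma adjusted p of 0.0547, and with the WT arrays raised to the floor it was 0.32. The KO values under the floor were kept as read there, so 0.32 is not a strict lower bound. Over the 15 alternatives in which Cd34 was tested the adjusted p ran from 0.00622 to 0.185, and it passed in 4. These were the fits with a trended prior (0.0494), with array weights (0.0095), without KO-03 (0.00622) and without KO-94 (0.0423).

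Thbd, thrombomodulin, the anticoagulant receptor of vessel walls, was at 6.08, 6.17, 5.92 and 7.22 on the KO arrays and 5.45, 4.65 and 5.56 on the WT arrays. KO-94 lay about 1 log2 unit above the other KO arrays, and WT-103 lay under the floor. The difference was 1.12 ± 0.33 (SE), a limma adjusted p of 0.116. Vwf, von Willebrand factor, was at 6.32, 6.86, 6.07 and 6.65 on the KO arrays and 6.25, 5.78 and 5.51 on the WT arrays. WT-27 lay above KO-91, so the groups overlapped. The difference was 0.63 ± 0.22 (SE), a limma adjusted p of 0.196.

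Selp, P-selectin of endothelium and platelets, averaged 6.18 ± 0.47 in KO and 5.57 ± 0.18 in WT (SD, n = 4 and 3), a difference of 0.61. Its other 2 probe sets lay below the floor throughout. Plvap, which forms the diaphragms of endothelial pores, was at 8.87, 9.07, 8.79 and 9.07 on the KO arrays and 8.73, 8.63 and 8.82 on the WT arrays. Only KO-91 lay under WT-104, and the difference was 0.22. Emcn, the sialomucin endomucin, averaged 6.29 ± 0.17 in KO and 5.99 ± 0.26 in WT, a difference of 0.29 with overlapping ranges.

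Vwf, Selp and Cd34 are also known from platelets or blood progenitors. Of 4 measured platelet markers, Pf4, platelet factor 4, rose by 1.07 ± 0.21 (SE; limma adjusted p = 0.0284) and 3 did not pass. Its call was lost without KO-90, without KO-91 or without any 1 WT array (adjusted p from 0.0539 to 0.109). Of the 3 that did not pass, Itga2b differed by -0.17 and Gp9 by -0.11, and Ppbp lay below the floor throughout. The mean of the 4 lay between 5.56 and 5.81 on the KO arrays and between 5.28 and 5.47 on the WT arrays. With Itga2b and Gp9 lower in KO, that mean does not show a rise shared by the platelet markers. The part of these cells in the continuous-vessel values was not tested.

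**Figure D2:**
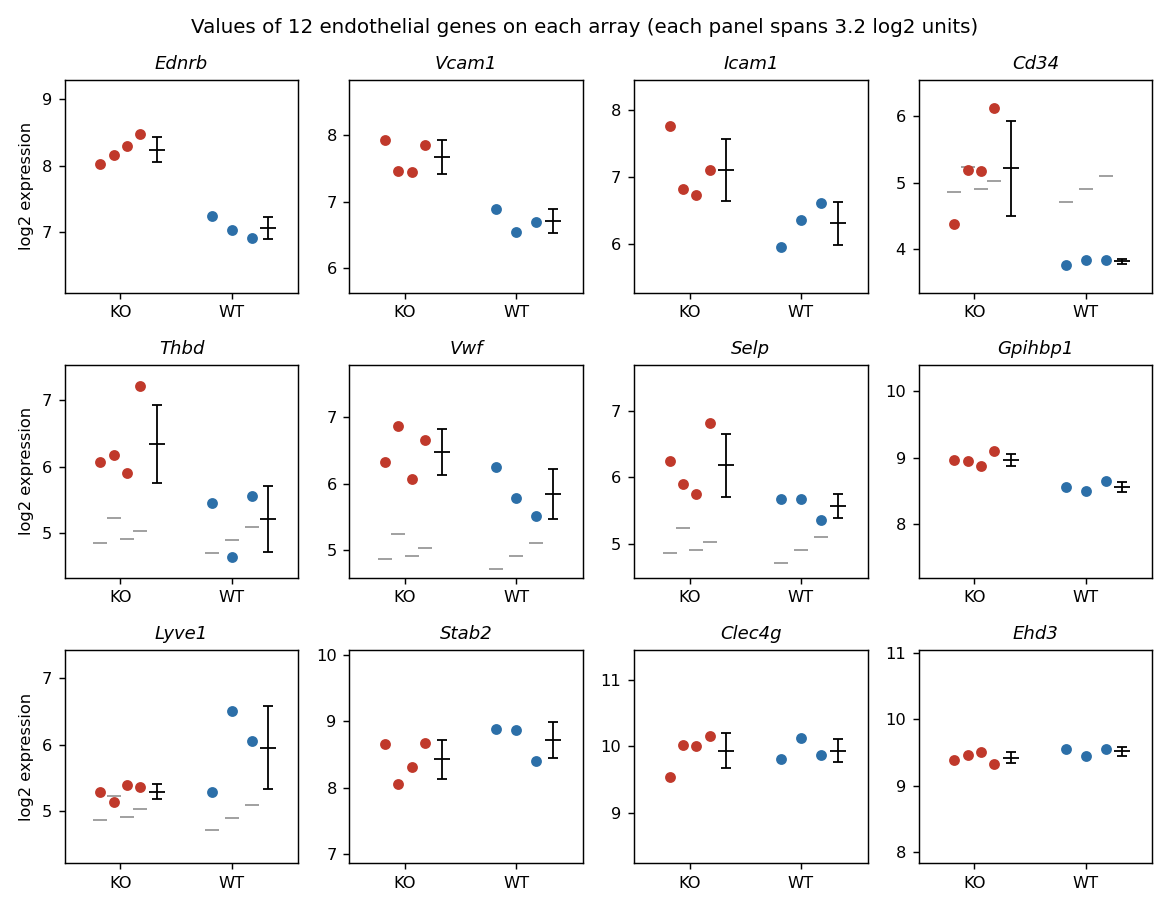
Log2 expression of 12 endothelial genes on each of the 4 KO (red) and 3 WT (blue) arrays, with the mean ± SD in black and each array's control floor as a grey dash where it falls inside the panel. Every panel spans the same number of log2 units. Ednrb and Vcam1 are separated between genotypes, Cd34 sits under the floor on all WT arrays, and Stab2, Clec4g and Ehd3 overlap.

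Continuous-vessel and sinusoidal genes were set side by side on each array, each list taken relative to its WT mean. The continuous-vessel mean minus the sinusoidal mean was 0.51 for KO-03, 0.75 for KO-90, 0.48 for KO-91 and 1.19 for KO-94, against 0.22 for WT-27, -0.19 for WT-103 and -0.04 for WT-104. Every KO array lay above every WT array in this contrast. It was not tested, because the lists were chosen with earlier results of these data known. On the KO arrays the continuous-vessel list lay 0.46 to 1.20 above its WT mean and the sinusoidal list between -0.04 and 0.01. These means use the values of Cd34 under the floor, and the continuous-vessel list holds Plvap, a gene of endothelial pores. Without Cd34, a choice made after seeing the data, the contrast was 0.49 for KO-03, 0.62 for KO-90, 0.30 for KO-91 and 0.97 for KO-94, against 0.27 for WT-27, -0.22 for WT-103 and -0.05 for WT-104. KO-91 then lay just above WT-27, and its continuous-vessel mean was 0.28 above the WT mean.

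**Figure D3:**
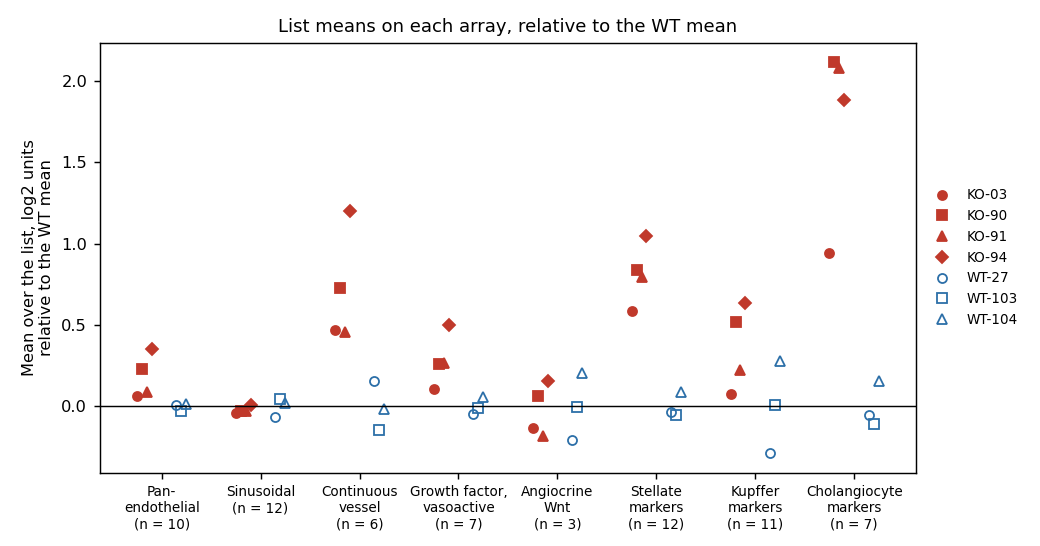
Mean over each gene list on each array, in log2 units relative to the WT mean, with filled red symbols for the 4 KO arrays and open blue symbols for the 3 WT arrays. The sinusoidal mean of every array lies within 0.07 of 0, the continuous-vessel means of the KO arrays, Cd34 included, lie at 0.46 to 1.20, and the stellate and cholangiocyte marker means of all KO arrays lie above those of all WT arrays.

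Genes that all endothelial cells share differed little. Of 10 pan-endothelial genes 0 rose and 0 fell in limma, and 2 were higher at an unadjusted p under 0.05. Their differences ran from -0.10 to 0.46 with a median of 0.19, and 9 of 10 were above 0, against 52.5% of all genes. The list mean was 7.20, 7.37, 7.23 and 7.49 on the KO arrays and 7.15, 7.11 and 7.16 on the WT arrays. All KO means lay above all WT means, KO-03 by a narrow margin. All 10 intervals lay within 1 log2 unit of 0.

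Pecam1, the junction protein CD31, was at 6.67, 7.0, 6.64 and 7.18 on the KO arrays and 6.68, 6.06 and 6.50 on the WT arrays. WT-27 lay above 2 KO arrays. Its difference was 0.46 ± 0.19 (SE), a limma adjusted p of 0.260. Ramp2, which with its partner receptor binds the vascular hormone adrenomedullin, was at 6.81, 7.02, 6.87 and 7.31 on the KO arrays and 6.81, 6.57 and 6.58 on the WT arrays. The groups overlapped through KO-03 and WT-27 alone. Eng, endoglin, a coreceptor for BMP and TGF-beta ligands, was at 8.93, 9.36, 9.03 and 9.03 on the KO arrays and 8.92, 8.84 and 8.92 on the WT arrays. The groups were separated by about 0.01 log2 units, and the difference was 0.19. Ptprb, the phosphatase that acts on Tie2 and VE-cadherin, was at 9.44, 9.23, 9.35 and 9.06 on the KO arrays and 9.43, 9.50 and 9.18 on the WT arrays, with overlapping ranges.

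Among the other pan-endothelial genes, the adherens junction protein Cdh5 (VE-cadherin) differed by 0.18 and the orphan receptor Tie1 by 0.07. The junction protein Esam differed by 0.11, the matrix protein Mmrn2 by 0.19 and the adhesion molecule Icam2 by 0.33. The secreted factor Egfl7 differed by 0.06, and its other 3 probe sets ran from -0.09 to 0.37. In each of these genes the ranges of the genotypes overlapped.

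Ednrb stood apart among the genes of growth factor and vasoactive signalling. Of these 7 genes Ednrb rose, 0 fell and 6 did not pass. Ednrb encodes the endothelin B receptor, which on endothelium clears endothelin from blood and drives nitric oxide release. Its values were 8.03, 8.17, 8.31 and 8.47 on the KO arrays and 7.25, 7.04 and 6.92 on the WT arrays. Every KO array lay above every WT array by a wide margin. The rise was 1.17 ± 0.14 (SE), or 2.26-fold, with a 95% interval from 0.86 to 1.49 and a limma adjusted p of 0.00352. Over all 17 alternatives the rise lay between 1.07 and 1.26 and the adjusted p between 0.000661 and 0.0257. Its other probe sets differed by 0.84 and 1.19, with adjusted p of 0.0839 and 0.00966 over all probe sets, and both were also separated between genotypes.

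Endothelin 1 (Edn1), a ligand of this receptor, did not pass, with a difference of -0.05. It averaged 5.16 in KO and 5.21 in WT, close to the floor, with 1 of the 4 KO arrays at or under it. Nos3, the endothelial nitric oxide synthase, averaged 6.55 ± 0.37 in KO and 6.30 ± 0.40 in WT, a difference of 0.25. Aqp1, the water channel aquaporin 1, was at 9.74, 10.34, 9.90 and 10.44 on the KO arrays and 9.49, 9.60 and 9.96 on the WT arrays. WT-104 lay above KO-03 and KO-91, and the difference was 0.42 ± 0.20 (SE), a limma adjusted p of 0.332. Aqp1 is also a gene of bile duct cells. Of 7 measured cholangiocyte markers 5 rose (Cd24a, Tspan8, Epcam, Krt19 and Cldn7), 0 fell and 2 did not pass. Their mean was 5.50 to 6.67 on the KO arrays and 4.44 to 4.71 on the WT arrays, and Krt7 lay below the floor throughout. Tspan8 and Cldn7 did not exceed the floor on any WT array, nor Krt19 and Epcam on 2 of the 3, so the WT mean is largely background. Cd24a and Tspan8 passed in all alternatives in which they were tested, and Epcam in all but the one without WT-103 (adjusted p = 0.0556). Krt19 and Cldn7 lost their calls without KO-90, KO-91, KO-94 or any 1 WT array, with adjusted p up to 0.109 for Krt19 and 0.167 for Cldn7, and Cldn7 also with a robust prior (0.0505). Other probe sets differed by 1.80 to 2.51 for Cd24a, 0.03 to 0.47 for Tspan8 and -0.17 for Epcam. The part of bile duct cells in the Aqp1 values was not tested.

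Receptors of vascular growth factors were close between genotypes. Kdr, VEGF receptor 2, averaged 7.69 ± 0.08 in KO and 7.65 ± 0.09 in WT (SD, n = 4 and 3), a difference of 0.04 with a 95% interval from -0.20 to 0.28. Flt1, VEGF receptor 1, differed by -0.09, and its other 3 probe sets by 0.15 to 0.32. Tek, the Tie2 receptor of angiopoietins, was at 7.22, 7.38, 7.22 and 7.31 on the KO arrays and 7.22, 6.94 and 7.07 on the WT arrays. WT-27 lay just above KO-03 and KO-91, and the difference was 0.20. Angpt2, an angiopoietin of activated endothelium, lay below the floor on each of the 7 arrays, so its fitted difference has no measured direction.

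Of the inducible adhesion molecules among the 40 genes, Vcam1 rose and Icam1 did not pass, and both were higher on every KO array than on every WT array. Sele, E-selectin, a further adhesion molecule outside the 40 genes, lay below the floor on all 7 arrays. Vcam1, which binds integrins of lymphocytes and monocytes, was at 7.93, 7.46, 7.45 and 7.85 on the KO arrays and 6.90, 6.55 and 6.70 on the WT arrays. The gap between the lowest KO array and the highest WT array was larger than the spread within either group. Vcam1 rose by 0.96 ± 0.16 (SE), or 1.94-fold, with a 95% interval from 0.60 to 1.31 and a limma adjusted p of 0.0154. Its call was lost without WT-103 (adjusted p = 0.0842) and without WT-104 (adjusted p = 0.0592). The other probe sets of Vcam1 differed by 0.59 and 1.24 and were separated between genotypes too.

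Icam1, which binds integrins of neutrophils, was at 7.77, 6.82, 6.73 and 7.10 on the KO arrays and 5.95, 6.35 and 6.61 on the WT arrays. KO-03 was the highest and the groups did not overlap. The difference of 0.80 ± 0.26 (SE) missed the threshold, with a limma adjusted p of 0.15 and of 0.112 to 0.388 over 17 alternatives.

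**Figure D4:**
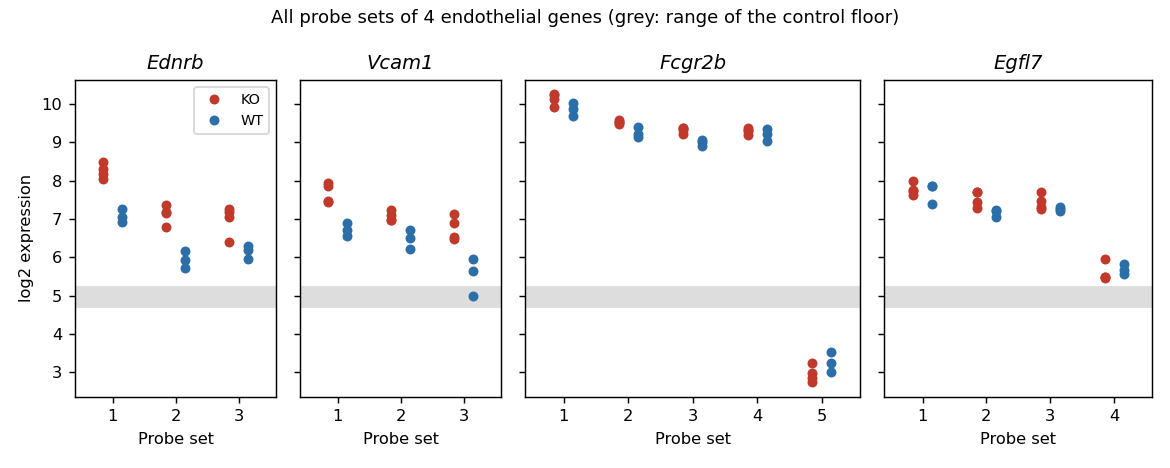
Log2 expression at every probe set of Ednrb, Vcam1, Fcgr2b and Egfl7, with KO arrays in red left of WT arrays in blue and the range of the control floor in grey. All 3 probe sets of Ednrb and all 3 of Vcam1 are separated between genotypes, while 3 of the 5 of Fcgr2b and 3 of the 4 of Egfl7 overlap.

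Ednrb and Vcam1 are not restricted to endothelium: hepatic stellate cells, the matrix-producing cells beside the sinusoid, also carry them. Of 12 stellate markers 6 rose (Pdgfra, Lum, Col1a1, Pdgfrb, Dcn and Hand2), 0 fell and 6 did not pass. Pdgfra, the platelet-derived growth factor receptor alpha, rose by 1.41 ± 0.15 (SE) and the proteoglycan Lum by 1.69 ± 0.20 (SE). The mean of the 12 markers was 8.17 to 8.63 on the KO arrays and 7.53 to 7.68 on the WT arrays, and each of them lay above the floor on at least 1 array. Pdgfra, Lum and Col1a1 passed in all 17 alternatives. Other probe sets differed by 0.36 to 0.97 for Pdgfra, 0.48 for Col1a1 and 0.59 for Pdgfrb. Those of Dcn and Hand2 differed less, by 0.06 and by 0.0003 to 0.19. Without WT-103 Pdgfrb did not pass (adjusted p = 0.053), nor did Dcn without WT-27 or WT-103 (up to 0.0732), nor Hand2 without any 1 array other than KO-03 (up to 0.164) or with the mean of all probe sets (0.138). Lrat, the retinol-storing enzyme of stellate cells, differed by -0.13, and its other probe set by 0.26. Vcam1, Stab1, Clec1b and Fcgr2b are known from macrophages as well. Of 11 Kupffer cell markers, genes of the resident macrophages, 0 passed, and 4 were higher at an unadjusted p under 0.05. Marco (0.89; limma adjusted p = 0.0667) and C1qb (0.66; limma adjusted p = 0.155) had the smallest p. Marco passed with array weights (0.018), without KO-03 (0.0365) and without WT-104 (0.0302), and C1qb without KO-03 (0.0446). The mean of those 11 was 8.76 to 9.32 on the KO arrays and 8.40 to 8.97 on the WT arrays, with overlap. The part of stellate cells and macrophages in the Ednrb and Vcam1 values was not tested.

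Promoters are shown for Ednrb, Icam1 and Cd34, which were separated between genotypes, and for the sinusoidal gene Stab2, whose ranges overlapped. The separation of Cd34 rests partly on values under the floor. Vcam1 and Thbd were not among the genes matched to a window. RefSeq windows on build GRCm38.p6 were matched for 21 of the 40 genes, and the 250 bases before the annotated start were searched. Capitals mark matches on either strand to GGAAG, the core that ETS factors bind, to GATAA, the motif of a zinc finger family, or to GGAANTTCC, a kappaB-like motif. The windows are chr14:103843702-103843951 on the minus strand for Ednrb, chr9:21015690-21015939 on the plus strand for Icam1, chr1:194938571-194938820 on the plus strand for Cd34 and chr10:87007943-87008192 on the minus strand for Stab2.
Ednrb: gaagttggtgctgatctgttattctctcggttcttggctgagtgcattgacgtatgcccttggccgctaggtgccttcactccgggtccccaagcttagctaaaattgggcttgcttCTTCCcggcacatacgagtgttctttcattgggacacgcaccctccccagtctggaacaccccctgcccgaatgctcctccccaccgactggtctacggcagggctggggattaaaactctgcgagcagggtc
Icam1: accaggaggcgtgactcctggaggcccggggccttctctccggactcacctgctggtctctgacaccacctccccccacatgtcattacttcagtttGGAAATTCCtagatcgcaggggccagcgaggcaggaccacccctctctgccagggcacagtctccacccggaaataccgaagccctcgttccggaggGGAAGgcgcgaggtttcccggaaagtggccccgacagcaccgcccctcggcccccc
Cd34: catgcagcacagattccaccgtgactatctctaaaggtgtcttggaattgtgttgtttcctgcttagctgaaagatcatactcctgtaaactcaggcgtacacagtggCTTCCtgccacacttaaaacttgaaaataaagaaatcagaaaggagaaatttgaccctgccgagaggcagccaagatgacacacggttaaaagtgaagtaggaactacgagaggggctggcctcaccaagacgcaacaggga
Stab2: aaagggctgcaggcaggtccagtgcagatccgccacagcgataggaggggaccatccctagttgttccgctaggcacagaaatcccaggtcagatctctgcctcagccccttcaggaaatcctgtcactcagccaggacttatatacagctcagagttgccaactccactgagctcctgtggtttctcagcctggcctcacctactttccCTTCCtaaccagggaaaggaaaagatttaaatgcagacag

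The ETS core was found in 17 of the 21 promoters, where 64.1% of all 32851 windows of that length hold it, and each of the 4 shown has 1 match. GATAA was found in 3 of the 21 (Clec1b, Egfl7 and Wnt2), against 22.6% of all windows. The kappaB-like motif was found in Icam1 alone of the 21, against 0.813% of all windows. The 3 motifs do not overlap in these 4 sequences. The motifs were picked with the data and sequences known, and a match is a string of letters, not a measured site.

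Wnt signals that endothelium sends to hepatocytes were level. Of 3 genes 0 rose and 0 fell in limma, also 0 at an unadjusted p under 0.05, with a median difference of -0.003. Rspo3, the R-spondin that strengthens Wnt signalling near central veins, was at 6.01, 6.53, 6.24 and 6.26 on the KO arrays and 5.95, 6.23 and 6.56 on the WT arrays. Wnt2 was at 6.38, 6.68, 6.12 and 6.80 on the KO arrays and 6.28, 6.59 and 6.86 on the WT arrays. Wnt9b, a ligand of central vein endothelium, was at 5.02, 4.80, 4.93 and 5.23 on the KO arrays and 4.98, 5.0 and 5.02 on the WT arrays. The groups overlapped in all 3 genes, and Wnt9b sat at the level of the floor. The 95% intervals of the differences were -0.37 to 0.40 for Rspo3, -0.52 to 0.36 for Wnt2 and -0.28 to 0.28 for Wnt9b.

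Beyond the 40 genes, 41 others of vascular signalling were examined, of which 1 rose and 0 fell, 2.44% against 2.58% of all genes higher. The gene that rose was Cxcl12, a chemokine of endothelium and stromal cells. It was at 10.85, 11.49, 11.31 and 11.19 on the KO arrays and 9.91, 10.05 and 10.28 on the WT arrays, a rise of 1.14 ± 0.17 (SE; limma adjusted p = 0.00863, and 0.0551 without WT-103). Its other 2 probe sets differed by 0.13 and 0.91. Of 9 vascular growth factors 0 passed, with 3 higher and 1 lower at an unadjusted p under 0.05. Vegfa, the main growth factor of endothelium, averaged 7.62 ± 0.36 in KO and 8.29 ± 0.29 in WT (SD, n = 4 and 3), a difference of -0.67 (limma adjusted p = 0.145). It passed with array weights (0.0479) and without KO-03 (0.0399). Gdf2, the circulating ligand BMP9, averaged 8.21 ± 0.20 in KO and 7.72 ± 0.11 in WT, a difference of 0.49 (limma adjusted p = 0.0982, and under 0.05 in 1 of 17 alternatives).

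Of 9 further vessel receptors 0 passed, with the smallest p for the semaphorin receptor Plxnd1 (0.56; limma adjusted p = 0.11, and 0.0492 with array weights) and for Notch4 (0.45, below the floor throughout). Of 12 endothelial transcription factors 0 passed. Of the 12 differences 11 were above 0, against 52.5% over all genes. So were 11 of 12 stellate, 11 of 11 Kupffer and 3 of 8 hepatocyte markers. The median of the 12 factors was 0.32, or 0.24 with the WT values of Klf4 raised to the floor. Klf4, a flow-induced factor, was at or under the floor on all WT arrays and at 4.37, 5.22, 5.11 and 5.32 on the KO arrays. Of the KO arrays 2 also lay at or under the floor. The fitted difference was 0.85 (limma adjusted p = 0.0887, but 0.0226 with array weights and 0.00496 without KO-03). With the WT arrays raised to the floor and the KO values kept as read it was 0.10. Lmo2, a blood and endothelial cofactor, averaged 7.31 ± 0.34 in KO and 6.77 ± 0.15 in WT, a difference of 0.54 (limma adjusted p = 0.179, and 0.0219 without KO-03).

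KO animals differed among themselves. KO-94 was the highest KO array in 19 of the 40 genes, 47.5%, where it was the highest in 38.2% of all genes. It was highest in 4 of the 6 continuous-vessel genes and 4 of the 12 sinusoidal genes. KO-03 was the lowest KO array in 17 of the 40 genes, and the highest for Icam1 and Vcam1. The share of all genes in which KO-03 was lowest was not counted, so this is not a result about the set. Without KO-94 the median difference of the continuous-vessel genes was 0.48, and without KO-03 it was 0.63.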

How the data were processed

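Livers of 4 KO and 3 WT mice were profiled with 1 array each. The authors deposited log2 values, which they obtained by robust multi-array analysis (RMA) with Partek, as the design text and, per the labels, the listed tools state. In this method arrays are brought to one distribution, so that a shift common to most genes is lost. Software versions were not given in the sources used here. Arrays give no counts, so no depth was computed, and their number limits the precision.

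Of 45101 probe sets, 64 were controls, 34945 others had 1 gene symbol, 932 several and 9160 none listed. Each gene is represented by its brightest probe set, averaged over all arrays. Genotypes were compared by two-sided moderated tests of limma (version 3.58.1, R 4.3.3), fitted without covariates, with 5 residual and 3.99 prior degrees of freedom. Animal numbers do not recur between genotypes, so nothing pairs the arrays. Intervals are 95% and unadjusted. Where all arrays of the lower genotype lay at or under the floor, that genotype was raised to the floor for a second difference. Values of the other genotype were kept as read, also under the floor, so this is not a strict lower bound. The members and lists were chosen with earlier results of these data known. Named are all 40 members, with values on every array for those that passed, the 3 of smallest p and the brightest of each group, and, of other lists, genes that passed or else the 2 of smallest p. Edn1, Lrat, Alb, Pdpn, Prox1, Krt7, Sele, Ppbp, Itga2b, Gp9 and Angpt1 were named outside that rule, after their values were seen. On simulated data of 18193 genes with 200 changed, limma found 74.1% of log2 changes of 1 and 96.3% of log2 changes of 2, while false calls made up 5.0%. Alternatives were other priors, array weights, other normalizations, dim-gene filters, other choices of probe set, a stricter threshold and leaving out each array. The labels do not say whether animals shared a litter or cage, and p-values measure only the spread between these samples.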

Additional observations from a re-analysis of the deposited data

Results flagged for a closer look

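In 4 of 83 gene values and list means looked at, 1 KO array stood apart from the other 3, and chance alone gives about 1 in 20. Esam had 7.97 in KO-94, against 7.38 to 7.42 in the other KO arrays. Flt1 had 5.04 in KO-90, under that array's floor of 5.23, against 5.29 to 5.30 in the others. Gdf2 had 8.51 in KO-94, against 8.08 to 8.15 in the others. Tspan8 had 5.30 in KO-03, against 6.93 to 7.23 in the others. Neither Esam nor Flt1 passed the test between genotypes.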

How the results depend on the processing

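Ednrb kept its call in all 17 alternatives and Vcam1 in 15. The count of members higher in KO, 2, was 4 with array weights, 3 with a trended prior (Cd34 joining), 1 at an adjusted p under 0.01 and 1 to 3 when single arrays were left out. The count of members lower in KO, 0 in limma with 1 at an unadjusted p under 0.05, was 0 to 1 when single arrays were left out (Lyve1 without WT-27) and 0 in the other alternatives. Over all genes the counts, 470 higher and 173 lower, were 909 and 344 with array weights, 892 and 252 without KO-03, and 132 to 332 higher and 37 to 108 lower without any other array. With array weights Cd34 and Gpihbp1 joined the calls. The median difference of sinusoidal markers, -0.04, was -0.0831 with median centring, -0.0937 with the mean of all probe sets, -0.178 with the probe set of largest variance and -0.0722 to 0.0506 when single arrays were left out. The median difference of continuous-vessel markers, 0.62, was 0.41 to 0.76 over all alternatives and 0.61 without Cd34, an alternative chosen after seeing the data. Some differences changed sign without any call, and those of Angpt2 come from values below the floor. With array weights Tie1 was at -0.0241, Egfl7 at -0.0426 and Angpt2 at 0.0206. With repeated quantile normalization Clec4g was at 0.0137, Kdr at -0.0176 and Rspo3 at -0.0715. With median centring Kdr was at -0.0056 and Rspo3 at -0.0295. With the mean of all probe sets Flt1 was at 0.14 and Rspo3 at -0.0475. With the probe set of largest variance Flt1 was at 0.32, and Fcgr2b, otherwise at 0.28, was at -0.31, read from a probe set below the floor throughout. When single arrays were left out, sign changes also occurred within -0.112 to 0.0646 for Angpt2, -0.134 to 0.0837 for Clec1b, -0.0764 to 0.125 for Clec4g, -0.0991 to 0.144 for Egfl7, -0.0326 to 0.181 for Esam, -0.182 to 0.0176 for Gata4, -0.0129 to 0.0744 for Kdr, -0.0213 to 0.295 for Mmrn2, -0.131 to 0.0468 for Oit3, -0.132 to 0.17 for Rspo3, -0.0372 to 0.199 for Tie1, -0.23 to 0.0628 for Wnt2 and -0.0822 to 0.0621 for Wnt9b. The cause of these changes was not tested. Of 32 other probe sets of members, 8 stayed below the floor, 19 had the sign of the chosen probe set and 5 the other sign. No paired analysis was possible because the animal numbers do not recur between genotypes. Levels near the floor limit what can be said of Cd34, Lyve1, Flt1, Wnt9b and Angpt2.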

Other observations

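The second probe set of Dnase1l3 fell into separate levels that did not follow genotype. It was at 6.84, 4.74, 6.59 and 4.57 on the KO arrays (KO-03, KO-90, KO-91, KO-94) and at 4.74, 6.65 and 6.92 on the WT arrays (WT-27, WT-103, WT-104). KO-90 and KO-94 lay under the floor and WT-27 just above its floor of 4.71, so the lower level is near background. The probe set used for this gene spanned 6.82 to 7.63 in KO and 7.12 to 7.93 in WT. The second probe set of Clec4g was at 4.85, 4.90, 4.92 and 4.64 on the KO arrays and 5.06, 5.42 and 5.28 on the WT arrays, with every KO array below every WT array (limma adjusted p = 0.15 over all probe sets), close to the floor.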
